A study of Mus musculus with 85 samples.

Results

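The 7 genes described here encode ligands and receptors of the guidance systems that vessels share with growing nerves. They are the ephrin ligands Efna1, Efnb2 and Efnb1, the ephrin receptor Ephb4, the netrin receptor Unc5b, the semaphorin receptor Plxnd1 and the Roundabout receptor Robo4. They were chosen by name, with earlier results of these data known, and all probe sets of each were read in every cell. They are 7 of the 18193 genes that the array's probe sets name singly, and they hold 14 probe sets. Of these, 11 were above background in at least 1 of 84 cells. Background was taken as a log2 value of 5, and 17.7% of all values of the arrays lay above it. All 7 genes passed the filter for a measured gene, which asked for 3 cells above background, as did 10694 genes in all.

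The study read the transcripts of sorted single cells of mouse embryos on Affymetrix arrays, in populations that lead from vessel wall to stem cell of the blood. There were 7 endothelial cells (EC) and 7 hemogenic endothelial cells (HEC), of a kind known to give rise to blood, from the caudal portion of embryos at embryonic day (E) 10.5. Those embryos carried the eR1-GFP reporter, in which an enhancer of Runx1 drives GFP. Both populations were gated as CD31+Ter119-CD45-CD41-, and GFP- cells were taken as EC and GFP+ cells as HEC, so that HEC are defined by the reporter. Cells of the hematopoietic clusters that bud from the aortic wall came from wild-type embryos and were gated as c-Kit+CD31+CD45+SSEA1-. There were 28 of them from the caudal portion at E10.5 and 16 from the E12.5 aorta-gonad-mesonephros region. Fetal liver hematopoietic stem cells (HSC, 27 arrays) came from wild-type embryos at E14.5 and were gated as CD150+, Sca-1+, c-Kit+, Mac-1+, CD48- and Lin-. Arrays 20 and 21 of that population were nearly identical (r = 0.991, while no other pair of arrays exceeded 0.859), and their mean was counted as 1 cell, which left 26.

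Ephrins are ligands anchored in the cell membrane, and their Eph receptors sit on the neighbouring cell, so both sides of a contact can receive a signal. In the developing vasculature Efnb2 is known as a marker of arterial and Ephb4 of venous endothelium. Netrin, semaphorin and Slit ligands act through Unc5, plexin and Roundabout receptors, and the endothelial members of those receptor families are known for steering sprouts and stabilising vessel walls.

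Sequences around the start sites of 3 of these genes are given because Efnb2 and Unc5b were among the members highest in HEC relative to EC, while Robo4 was also found in part of the HSC. The letters are from RefSeq, build GRCm38.p6, and run 5′ to 3′ on the strand of the gene for 300 bases, 250 before the start site and 50 from it on. Capitals mark matches, on either strand, to any of 4 motifs known for vascular and blood transcription factors: GTGGGAA (RBPJ), CCGGAA (ETS), ACAAT (SOX) and AGATAA for the GATA family. The windows are chr8:8661193-8661492 on the minus strand for Efnb2, chr10:60831532-60831831 on the minus strand for Unc5b and chr9:37401722-37402021 on the plus strand for Robo4.
Efnb2: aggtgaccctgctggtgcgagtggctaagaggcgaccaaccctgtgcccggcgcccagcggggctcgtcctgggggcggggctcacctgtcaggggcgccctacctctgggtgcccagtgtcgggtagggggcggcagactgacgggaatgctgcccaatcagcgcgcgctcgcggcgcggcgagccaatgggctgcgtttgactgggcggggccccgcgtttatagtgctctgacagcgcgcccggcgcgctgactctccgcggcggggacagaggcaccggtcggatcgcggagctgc
Unc5b: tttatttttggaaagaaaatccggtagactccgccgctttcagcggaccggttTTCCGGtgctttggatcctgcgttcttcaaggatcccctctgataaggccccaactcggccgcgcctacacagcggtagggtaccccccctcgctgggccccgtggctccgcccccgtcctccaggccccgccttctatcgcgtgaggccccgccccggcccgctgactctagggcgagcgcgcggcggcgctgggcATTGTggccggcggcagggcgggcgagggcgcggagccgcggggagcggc
Robo4: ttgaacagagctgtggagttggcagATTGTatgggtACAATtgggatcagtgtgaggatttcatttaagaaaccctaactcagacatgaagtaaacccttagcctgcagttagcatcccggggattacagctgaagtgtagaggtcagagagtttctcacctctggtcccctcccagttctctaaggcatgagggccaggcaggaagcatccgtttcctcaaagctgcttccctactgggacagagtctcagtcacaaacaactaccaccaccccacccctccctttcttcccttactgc

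The 7 members had 8 windows in that table, Efna1 having 2. The Efnb2 window held none of the 4 motifs and was 72.3% G and C, against a median of 52.7% over 32851 promoters of the same length. The Unc5b window held 1 ETS match, with its first base at -197 from the start site, and 1 SOX match that began at the start site itself, and no matches overlapped. The Robo4 window held 2 SOX matches, at -225 and -214, and was 50.3% G and C. These 2 positions count from the start site of the window, which lies downstream of the Robo4 gene start at 37401902. Over all promoters, ETS letters were in 14.9%, SOX letters in 31.0%, RBPJ letters in 6.38% and GATA letters in 11.2%, while among the 8 windows 1, 2, 0 and 0 held them. A match is a description of letters in the window.

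The labels name no animal or litter, which makes every population 1 sample, and no test was run. Differences are those of mean log2 values over cells and are called higher or lower at 1 log2 unit or more. Each SD is taken over cells and describes how cells of 1 population vary, and shares of cells carry exact Clopper-Pearson 95% intervals that cover counting error only. EC and HEC share genotype, stage and tissue. E10.5 cluster cells and HEC differ in gate and genotype, E12.5 and E10.5 cluster cells in stage and dissected tissue, and HSC and cluster cells in gate, stage and tissue, which cannot be told apart from cell identity. The mean number of probe sets above background per cell was 5905, 7712, 9943, 7820 and 6552 along the route from EC to HSC. Of 15 pan-endothelial marker genes, medians of 13, 14, 5, 3 and 6 per cell were above background along the same route, and of 12 pan-hematopoietic ones medians of 0, 1, 11, 10 and 8. Runx1, among those 12, was above background in no HEC and in no EC. There were 6 cells whose genes went against the sort. In EC cell 3, Dppa3 (14.59) and Pou5f1 (13.96), known from germ cells, were high and the endothelial cadherin gene Cdh5 was at background (2.32). In cells 3, 6 and 10 of the E12.5 cluster the complement gene C1qb, known from macrophages, stood at 15.59 to 15.88. HSC cells 5 and 7 held Lyve1 and Stab2, known from liver sinusoidal endothelium, and had Ptprc, which encodes CD45, at 2.34 and 2.33. These cells stayed in, and values without them are given where they matter.

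Efna1, a ligand anchored by a lipid tail that signals to EphA receptors (chr3:89271730-89280951), was above background in all 7 HEC (interval 59.0 to 100%). Its lowest, median and highest values were 10.43, 11.85 and 13.78 in HEC, against 2.36, 2.70 and 11.54 in EC. Elsewhere it was found in 3 of 7 EC, in 1 of 28 and 1 of 16 cluster cells at E10.5 and E12.5, and in 10 of 26 HSC (intervals 9.90 to 81.6%, 0.0904 to 18.3%, 0.158 to 30.2% and 20.2 to 59.4%). All HEC were thus high, and 2 of the 7 EC lay in the range of the HEC or just below it, with cell 3 at 8.21 and the other 4 EC at background. The mean difference of HEC minus EC was 6.51 on the log2 scale (12.24 ± 1.16 against 5.72 ± 4.05, SD over 7 cells each), the rank 22 positive difference of all measured genes. In E10.5 cluster cells the mean was 2.42 ± 0.66, a difference from HEC of -9.82, and the cells of the populations did not overlap, the highest cluster cell (cell 24) standing at 5.77. Among HSC the 10 cells above background ran from 5.00 to 11.49 while the median stayed at 2.53. The second probe set of Efna1 was above background in 14 of the 22 cells in which the first was, and in no other cell. Among HSC it was above background in 4 of 26 cells. It gave 0.75 for HSC minus E12.5 cluster cells, less than 1, and 1.07 for HSC minus E10.5 cluster cells.

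Efnb2, a transmembrane ephrin and the arterial partner of Ephb4 (chr8:8617235-8661242), was likewise found in 7 of 7 HEC, and its values there stood closer together. The lowest, median and highest values were 10.98, 12.23 and 12.85 in HEC, against 2.33, 8.63 and 11.89 in EC. EC fell into 2 sets, with cells 2, 4, 6 and 7 at 8.63 or more and cells 1, 3 and 5 at 2.51 or less. The mean difference of HEC minus EC was 5.45 (12.13 ± 0.61 against 6.68 ± 4.10), at rank 114. In E10.5 cluster cells Efnb2 was found in cells 19 (10.86) and 23 (7.50) of 28, and in E12.5 cluster cells in cells 1 (9.21) and 5 (12.44) of 16 (intervals 0.877 to 23.5% and 1.55 to 38.3%). The mean of E10.5 cluster cells was 2.94 ± 1.87, a difference from HEC of -9.18, and the highest cluster cell lay just under the lowest HEC. In HSC Efnb2 was found in 6 of 26 cells at 8.40 to 10.87 (interval 8.97 to 43.6%), and in 5 of 24 without cells 5 and 7. Of the 4 probe sets of Efnb2, 2 were not above background in any cell, so the mean over all 4 gave 2.63 for HEC minus EC and -4.51 for E10.5 cluster minus HEC. The other probe set was above background in 17 of the 21 cells that the first found, and the pair correlated at r = 0.92 over 84 cells. The 4 cells found by the first alone were HSC cells 15, 17 and 19 and E12.5 cluster cell 1. By the other probe set Efnb2 was thus found in 3 of 26 HSC and in 1 of 16 E12.5 cluster cells.

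Efnb1, the other transmembrane ephrin of the set (chrX:99136061-99149022), was near background in every population. The cells with Efnb1 were 1 of 7 EC, 0 of 7 HEC, 2 of 28 and 0 of 16 cluster cells at E10.5 and E12.5, and 1 of 26 HSC, and 0 of 7 allows a share of up to 41.0% and 0 of 16 one of up to 20.6%. The EC was cell 3, at 7.41, and the HSC was cell 5, at 7.97, both cells whose genes went against the sort. Without those cells it was found in 0 of 6 EC and 0 of 24 HSC (up to 45.9 and 14.2%), and the 2 E10.5 cluster cells, 3 and 25, stood only just above the background line, at 5.39 and 5.37. Its mean differed by less than 1 in all 5 comparisons. The difference of HEC minus EC was -0.74 as deposited, -1.71 after shifting cells to an equal median and -0.018 without EC cell 3.

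**Figure D1:**
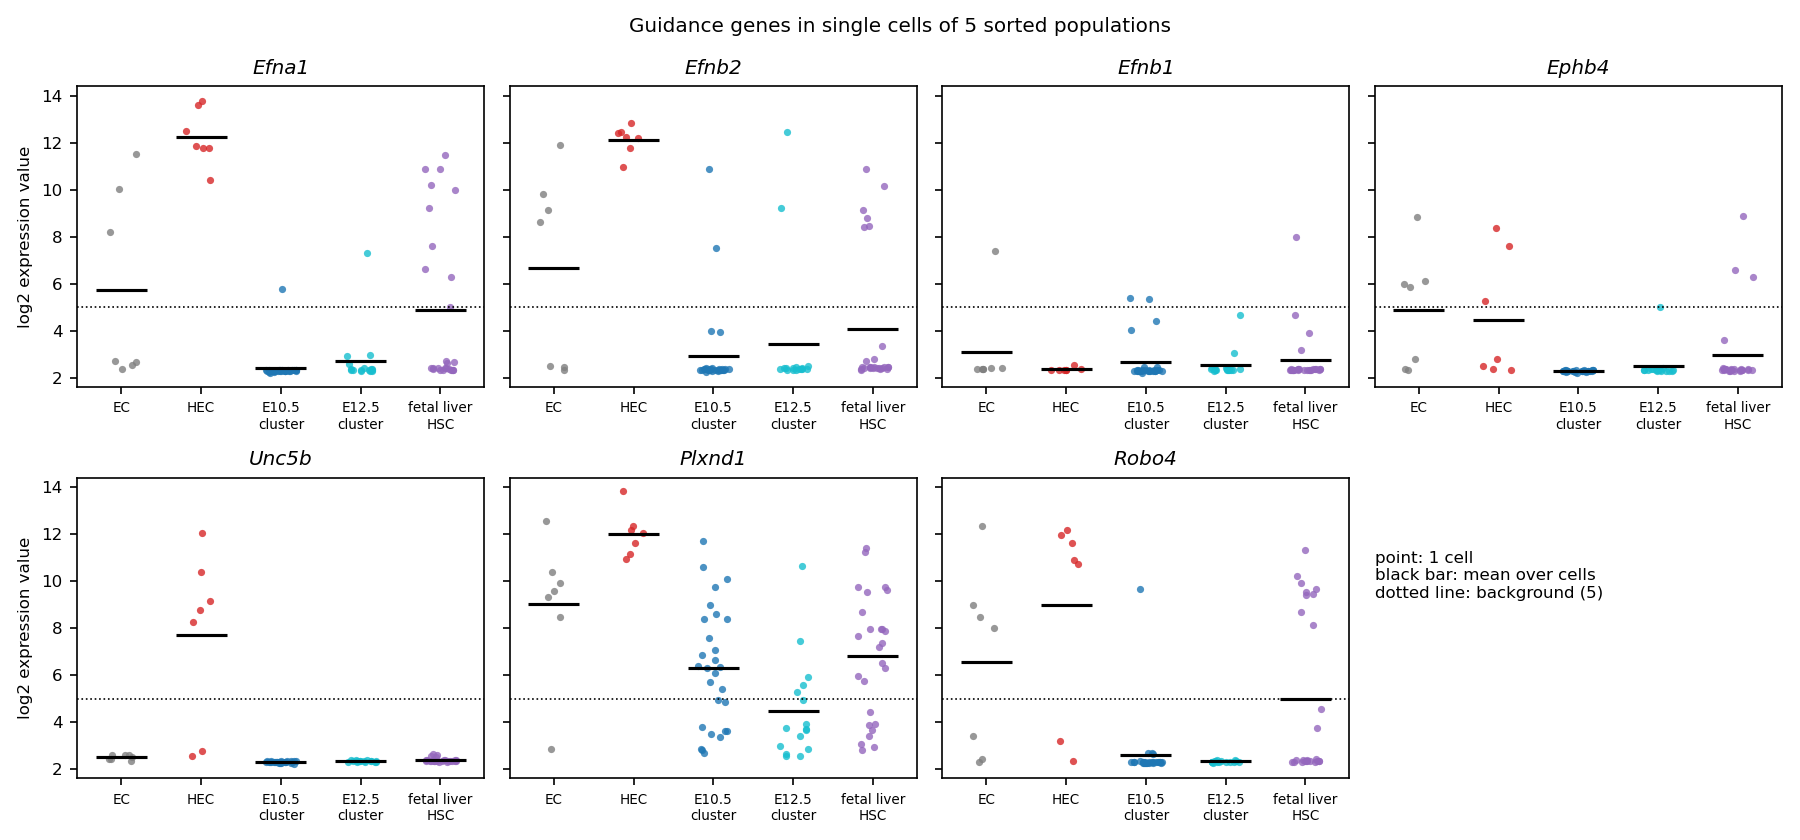
Log2 expression value of each of the 7 guidance genes (vertical axes) in each of 84 single cells, by population (horizontal axes), with the mean over cells as a black bar and background as a dotted line at 5. Efna1, Efnb2 and Plxnd1 are above background in all 7 HEC, Unc5b is above it in HEC alone among these cells (5 of 7), and most cluster cells lie at the floor except for Plxnd1.

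Ephb4, the receptor of Efnb2 (chr5:137350109-137374522), was found in 3 of 7 HEC and 4 of 7 EC (intervals 9.90 to 81.6% and 18.4 to 90.1%). Its lowest, median and highest values were 2.31, 2.78 and 8.38 in HEC, against 2.32, 5.87 and 8.83 in EC. The populations overlapped throughout, and the mean difference of HEC minus EC was -0.44, less in size than the SD over cells (2.55). It was lower in HEC than in EC by 1 or more after shifting cells to an equal median (-1.41), after quantile normalization (-1.94), by medians over cells (-3.09) and without HEC cell 1 (-1.09). It was above 0 without EC cell 1 (0.22) and in the cells whose control probe sets both held the value shared across arrays (0.45), so its direction was not settled. In cluster cells Ephb4 was found in 0 of 28 at E10.5, which allows a share of up to 12.3%, and in 1 of 16 at E12.5, cell 9, at 5.01. The difference of E10.5 cluster minus HEC was -2.17 (2.28 ± 0.027 against 4.46 ± 2.63), and -0.50 with medians in place of means, where the HEC median is that of a cell at background. The HSC with Ephb4 were cells 5, 7 and 13, and without cells 5 and 7 it was found in 1 of 24.

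Unc5b, the endothelial netrin receptor that also binds Robo4 and Flrt proteins (chr10:60762594-60831581), was found in 5 of 7 HEC and in no cell of the other populations. In HEC its lowest, median and highest values were 2.58, 8.78 and 12.06, against 2.34, 2.50 and 2.61 in EC. HEC cells 1, 2, 4, 5 and 7 held it at 8.25 or more, and cells 3 and 6 were at background. The mean difference of HEC minus EC was 5.21 (7.71 ± 3.66 against 2.50 ± 0.11), at rank 148. The difference of E10.5 cluster minus HEC was -5.40, and the 28 cluster cells were at background like the 2 HEC without it. Shares of 0 in 7 EC, in 28 and 16 cluster cells at E10.5 and E12.5, and in 26 HSC allow up to 41.0, 12.3, 20.6 and 13.2% of cells. The second probe set of Unc5b was above background in 1 cell, HEC cell 4, so with the mean of both sets the differences were 2.83 and -2.96.

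Plxnd1, the endothelial plexin through which class 3 semaphorins act on vessels (chr6:115954811-115995339), was the member found in most cells, 54 of 84. The cells with Plxnd1 were 6 of 7 EC, 7 of 7 HEC, 18 of 28 and 5 of 16 cluster cells at E10.5 and E12.5, and 18 of 26 HSC (intervals 42.1 to 99.6%, 59.0 to 100%, 44.1 to 81.4%, 11.02 to 58.7% and 48.2 to 85.7%). Its lowest, median and highest values were 10.96, 12.03 and 13.83 in HEC, against 2.88, 9.58 and 12.58 in EC, where the lowest cell was cell 3. The mean difference of HEC minus EC was 2.99 (12.01 ± 0.95 against 9.02 ± 2.99), at rank 1368, and it was 1.97 without EC cell 3 and 1.48 after quantile normalization. In E10.5 cluster cells the values lay on both sides of the background line, with 2.68, 6.33 and 11.73 as lowest, median and highest. The E10.5 cluster mean was 6.32 ± 2.56, a difference from HEC of -5.69, and the highest cluster cell reached into the HEC range. At E12.5 the lowest, median and highest values were 2.55, 3.72 and 10.64, against 2.68, 6.33 and 11.73 at E10.5, and the highest was cell 6, one of the cells with C1qb. The mean difference of E12.5 minus E10.5 was -1.83, less in size than the SD over cells (2.37), and quantile normalization turned it to 0.078. In HSC the lowest, median and highest values were 2.81, 7.27 and 11.42, with a mean of 6.80 ± 2.64, higher than in E12.5 cluster cells by 2.31. That difference was less than the SD over cells (2.41). Values near the background line make the count of Plxnd1 cells soft, since 4 cells lay within 1 log2 unit below it and 7 within 1 above it.

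Robo4, an endothelial Roundabout receptor (chr9:37401902-37414023), was found in 5 of 7 HEC and 4 of 7 EC (intervals 29.0 to 96.3% and 18.4 to 90.1%). Its lowest, median and highest values were 2.34, 10.89 and 12.18 in HEC, against 2.32, 7.99 and 12.34 in EC, so the highest cell was an EC. HEC cells 2 and 3 and EC cells 1, 3 and 5 lacked it. The mean difference of HEC minus EC was 2.43, at rank 2108 and less than the SD over cells (4.09), and it was 0.89 in the 5 HEC and 6 EC whose control probe sets both held the value shared across arrays, and 1.01 after quantile normalization. In cluster cells it was found in 1 of 28 at E10.5 and in 0 of 16 at E12.5, which allows up to 20.6%. The 1 cluster cell, cell 17 at 9.66, also held 12 of the 15 pan-endothelial markers, with Cdh5 at 11.85 and Ptprc at 11.76. The difference of E10.5 cluster minus HEC was -6.39 (2.60 ± 1.39 against 8.99 ± 4.30). In HSC Robo4 was found in 9 of 26 cells at 8.13 to 11.32 (interval 17.2 to 55.7%), and in 7 of 24 without cells 5 and 7. Its HSC median was 2.38, at background, and the other 17 cells stood at 4.57 or less.

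Across the members, 5 of 7 were higher in HEC than in EC by 1 or more, against 45.9% of all measured genes, and 0 of 7 were lower, against 7.36%. The median difference of the members was 2.99, against 0.82 for all measured genes, so all genes together stood higher in HEC. With cells shifted to an equal median, 5 members were higher and 2, Ephb4 and Efnb1, lower, against 26.6 and 30.7% of all genes, and after quantile normalization 5 and, with Ephb4, 1, against 25.5 and 21.6%. Between E10.5 cluster cells and HEC, 6 of 7 were lower, against 15.7% of all genes, and none was higher, against 43.1%. The median difference of the members was -5.69, against 0.71 for all measured genes. Efnb1 was the exception (0.30). With cells shifted to an equal median 6 were lower and 0 higher, against 11.5 and 56.0% of all genes, and after quantile normalization also 6 and 0, against 22.8 and 27.9%. In that comparison every HEC was above background and above every cluster cell for Efnb2 and Efna1, which is 2 of 7, against 0.421% of all measured genes.

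Between E12.5 and E10.5 cluster cells only Plxnd1 passed 1 log2 unit, so 1 of 7 was lower, against 39.9% of all genes, and 0 were higher, against 5.47%. The other 6 members differed by between -0.27 and 0.50, and all were at background in most cells of both stages. After quantile normalization no member passed 1 log2 unit, and 15.1% of all genes were higher and 18.97% lower. Between HSC and E12.5 cluster cells, 3 of 7 were higher, Robo4 by 2.67, Plxnd1 by 2.31 and Efna1 by 2.15, against 7.91% of all genes. None was lower, against 36.9%. The differences of Plxnd1 and Efna1 were less than the SD over cells (2.41 and 2.60), and that of Robo4 was more (2.46). By its second probe set Efna1 differed by only 0.75, so its call rests on the first. After quantile normalization 3 were higher and 0 lower, against 17.3 and 19.3% of all genes. Efnb2 differed by 0.62, by 1.22 without E12.5 cluster cell 5, by 0.35 without HSC cell 5, by 0.15 without the 6 cells that went against the sort and by 0.057 in medians. Between HSC and E10.5 cluster cells, which share their HSC cells with the last comparison, Efna1 (2.46), Robo4 (2.40) and Efnb2 (1.12) were higher. That is 3 of 7, against 5.01% of all genes, and 0 were lower, against 55.5%. All 3 differences were less than the SD over cells (2.49, 2.65 and 2.48 in the same order). After quantile normalization 4 were higher and 0 lower, against 20.4 and 25.8% of all genes, the fourth being Plxnd1 at 2.62, against 0.47 as deposited. The call of Efnb2 was lost under 5 of 9 alternatives, with differences of 0.85 without HSC cell 5, 0.89 without the 6 cells that went against the sort, 0.84 in the cells with both shared control values, 0.42 over all probe sets and 0.096 in medians. By its other probe set with cells above background Efnb2 differed by 0.49, so its call rests on the first. Efna1 and Robo4 differed by 0.23 and 0.085 when medians over cells were taken, as each was at background in over 50% of the HSC. Without the 6 cells that went against the sort, the HSC means were 4.71 ± 3.28 for Efna1 and 4.55 ± 3.21 for Robo4 over 24 cells.

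In order of mean level, HEC stood first for Efnb2, Efna1, Unc5b, Plxnd1 and Robo4, and EC for Ephb4 and Efnb1. The step from HEC down to EC was larger than the SD over cells for Efnb2, Efna1, Unc5b and Plxnd1. For Robo4 it was not, nor was the gap between EC and HEC for Ephb4. HSC came after EC and HEC for Efnb2, Efna1, Ephb4, Plxnd1 and Robo4, and neither their gap to the population above nor that to the one below exceeded the SD over cells. Unc5b had the same order, with a gap from EC to HSC of 0.103 that exceeded the SD over cells (0.098), but every EC and HSC was at background.

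**Figure D2:**
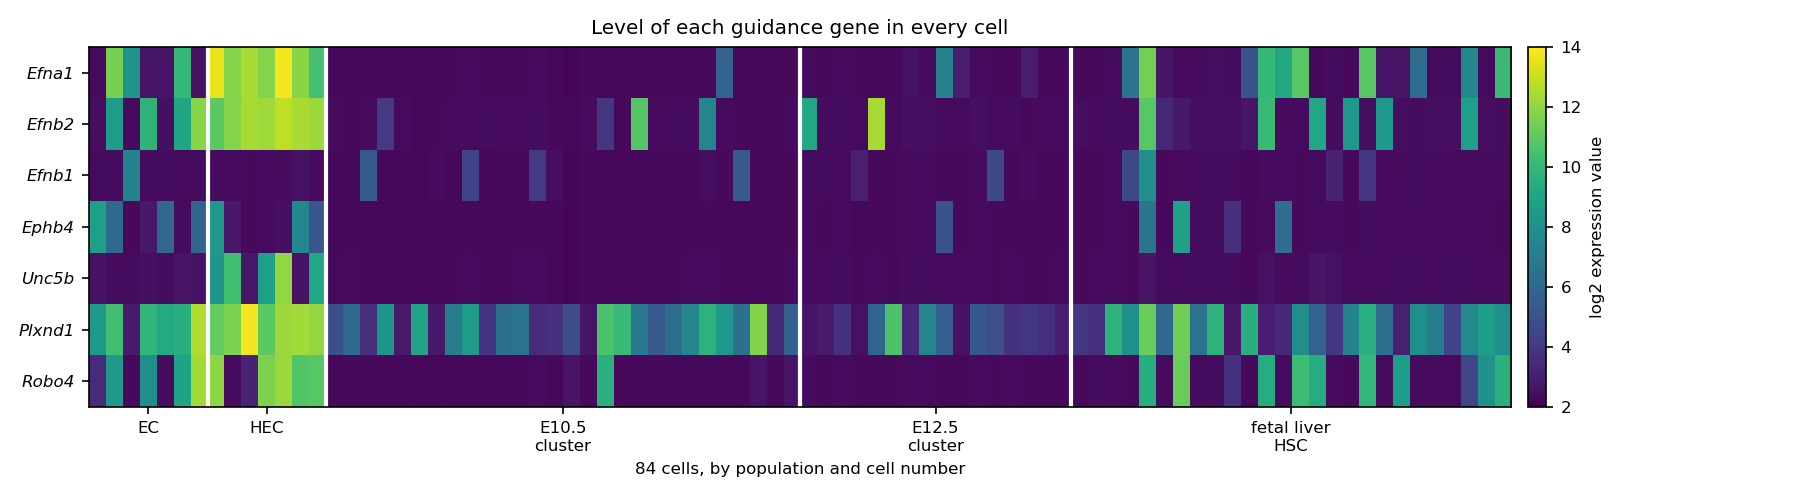
Log2 expression value (colour) of the 7 guidance genes (rows) in each of 84 cells (columns), ordered by population and cell number. HEC columns are bright in 3 to 6 rows, cluster columns in 0 to 3 and mostly in the Plxnd1 row, and HSC columns form a mosaic in which different cells hold different members.

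The members were also counted in each cell. A mean of 4.86 ± 1.07 of the 7 were above background per cell in HEC (3 to 6), against 3.14 ± 1.21 in EC (2 to 5). The mean was 0.857 ± 0.705 in E10.5 cluster cells (0 to 2) and 0.562 ± 0.892 in E12.5 cluster cells (0 to 3). No HEC or EC lacked all members, while 9 of 28 E10.5 and 10 of 16 E12.5 cluster cells did. In HSC the mean was 1.81 ± 1.39 (0 to 6), and 1.58 ± 1.10 without cells 5 and 7 (0 to 3). A member other than Plxnd1 was found in 16 of 26 HSC, against 6 of 28 and 3 of 16 cluster cells at E10.5 and E12.5. HSC cell 5 held all members but Unc5b.

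The members did not mark the same cells. Efna1 and Robo4 were both found in 5 of the 26 HSC, Efna1 alone in 5, Robo4 alone in 4 and neither in 12. In EC Efnb2 and Robo4 were found in the same 4 cells of 7 (2, 4, 6 and 7; r = 0.98 over 7 cells). In HEC the pair parted, as Efnb2 was in all 7 cells and Robo4 in 5. Unc5b and its binding partner Robo4 were both found in HEC cells 1, 4, 5 and 7, Unc5b alone in cell 2, Robo4 alone in cell 6, and neither in cell 3.

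Ligand and receptor of the Efnb2 and Ephb4 pair were found in the same cell in 3 of 7 HEC and 2 of 7 EC. No HEC held Ephb4 without Efnb2, and 4 held Efnb2 alone. EC cells 1 and 5 held Ephb4 without Efnb2, cells 4 and 6 Efnb2 without Ephb4, and cell 3 neither. The correlation over the 14 cells of both populations was -0.22, a description of cells that share their population's level. EC cells 1 and 5 had 2 of 12 arterial markers each and 6 and 4 of 8 venous and lymphatic markers, while the 4 EC with Efnb2 had 3 or 4 arterial and 5 or 6 venous and lymphatic ones. HEC cell 3, without Unc5b, Robo4 and Ephb4, had 2 arterial and 6 venous and lymphatic markers. The other 6 HEC had 7 to 11 arterial markers and 1 to 5 venous and lymphatic ones, with 5 in cell 6 and 4 in cell 7. The part that vessel type has in these patterns was not tested.

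**Figure D3:**
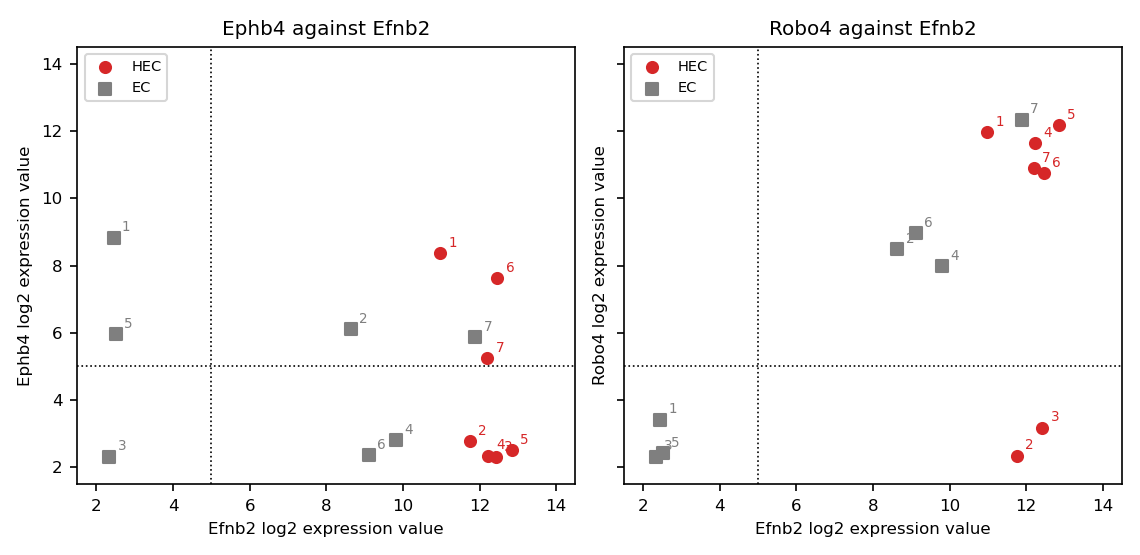
Log2 expression value of Ephb4 (left) and Robo4 (right) on the vertical axes against that of Efnb2 on the horizontal axes in 7 HEC (circles) and 7 EC (squares), each labelled with its cell number, with background as dotted lines at 5. All HEC lie right of the line for Efnb2 and split by Ephb4 and Robo4, and EC with Efnb2 are the same cells as EC with Robo4.

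Markers of endothelium moved with the members between populations. Summed log2 values of the 15 pan-endothelial markers ran from 156.14 to 176.65 in HEC, against 121.25 to 168.09 in the EC other than cell 3, which was lower still. They ran from 47.44 to 134.66 in E10.5 cluster cells, from 39.02 to 77.16 in E12.5 cluster cells and from 62.07 to 158.07 in HSC. The highest HSC were cells 7 (158.07) and 5 (145.17), which went against the sort, and the next was cell 15, at 94.75. Within E10.5 cluster cells the number of members and the number of pan-endothelial markers per cell correlated at r = 0.55 (28 cells). Within E12.5 cluster cells it was 0.10 (16 cells). Within HSC the correlation was 0.44 (26 cells), and it was -0.031 without cells 5 and 7 (24 cells). The HSC with a member, other than those 2 cells, had between 3 and 9 of the 15 markers, and those with Robo4 had 8 to 11 of 12 pan-hematopoietic markers. In HSC the number of members and the number of probe sets above background correlated at r = 0.052 (26 cells). That correlation was -0.65 in HEC and -0.33 in EC (7 cells each), -0.30 in E10.5 cluster cells and -0.21 in E12.5 cluster cells. Marker genes of mesenchymal and mural cells were above background in no HEC or EC (0 of 8 in every cell). In HSC 1 of the 8 was found in cells 3 and 12, and of 5 hepatocyte markers 1 was found in cell 1 and 2 in cell 4. HSC cell 12 held Efnb2, Efna1 and Robo4, cell 4 Efna1 and Plxnd1, cell 3 Plxnd1 and cell 1 no member. In cluster cells 1 of the 8 was found in 6 of 28 cells at E10.5 and 5 of 16 at E12.5. Of the other lists, a germ-cell marker was found in 12 of 26 HSC, an epithelial one in 11 and a macrophage one in 9. A sinusoidal marker was found in 5, an erythroid one in 1 and a neural one in 0. The part of other cell types in the HSC values was not tested beyond this.

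**Figure D4:**
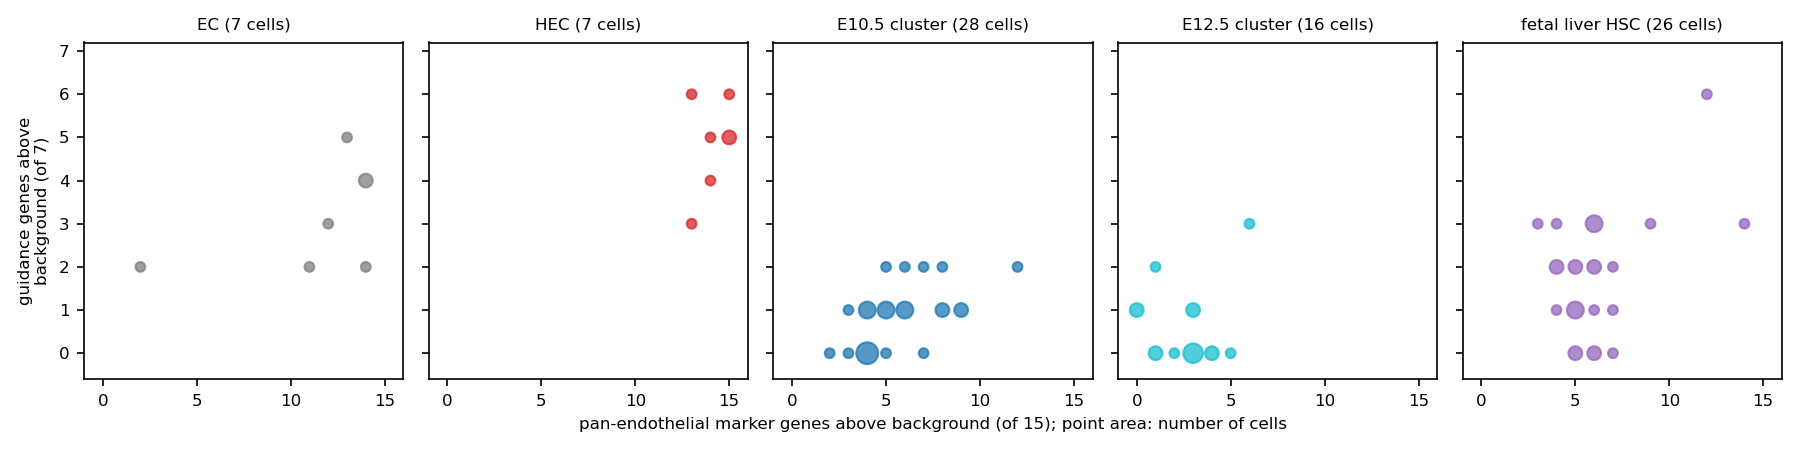
Number of the 7 guidance genes above background (vertical axis) against the number of 15 pan-endothelial markers above background (horizontal axis) per cell, 1 panel per population, with point area for the number of cells. HEC lie at the upper right and most cluster cells at the lower left, with E10.5 cluster cell 17 at 12 markers, and HSC spread from 0 to 3 members at 3 to 9 markers, with cells 5 and 7 apart at 12 and 14 markers.

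The wider guidance families hold 83 listed genes, 82 of them on the array, 47 measured and 25 found in at least 50% of the cells of some population. Without the 7 members, 40 were measured, and 15 were higher and 4 lower in HEC than in EC, against 45.9 and 7.36% of all measured genes. Their median was 0.40, below the 0.82 of all genes. In E10.5 cluster cells 7 were higher and 15 lower than in HEC, against 43.1 and 15.7%, with a median of -0.37 against 0.71. Between E12.5 and E10.5 cluster cells 3 were higher and 2 lower, against 5.47 and 39.9%. Between HSC and E12.5 cluster cells 4 were higher and 4 lower, against 7.91 and 36.9%, and between HSC and E10.5 cluster cells 3 and 6, against 5.01 and 55.5%.

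Several genes of the families followed the HEC members. Nrp1, a coreceptor of semaphorins and VEGF, was found in 7 of 7 HEC and 5 of 7 EC and its difference was 3.98 for HEC minus EC and -9.88 for E10.5 cluster minus HEC. The membrane semaphorin gene Sema6d differed by 4.06 and -9.10 in these comparisons, and Arhgef15, an endothelial exchange factor that acts downstream of Eph receptors, by 4.20 and -8.93. The secreted semaphorin gene Sema3g differed by 2.90 and -5.27, and the netrin receptor gene Neo1 by 1.89 and -4.61. HEC and EC means were 11.39 ± 3.59 against 7.33 ± 4.77 for Sema6d and 7.83 ± 4.54 against 4.93 ± 3.41 for Sema3g. For Neo1 they were 6.92 ± 4.69 against 5.03 ± 4.55. For Sema3g and Neo1 the difference of HEC minus EC was thus smaller than the SD of either population, and for Sema6d smaller than the SD of EC. Sema6d, Sema3g and Neo1 were found in 6, 5 and 4 of 7 HEC and 4, 3 and 2 of 7 EC. Nrp2, the coreceptor known from veins and lymphatics, went the other way in HEC, with a difference of -2.79 (6.08 ± 4.74 against 8.87 ± 4.65). It was found in 3 of 7 HEC and 5 of 7 EC, and this difference too was smaller in size than the SD of either population. Of the ligands, 0 of 7 netrin and Flrt genes and 0 of 3 Slits were found in at least 50% of any population.

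Other genes of the families were found mainly in the blood populations. Sema4d, the semaphorin known as CD100, was found in 27 of 28 E10.5 cluster cells and 0 of 7 HEC, with a difference of 5.63. Vav1, a blood-cell exchange factor, differed by 4.49. Plxnc1, the receptor of Sema7a, was found in 23 of 26 HSC with a mean of 10.29 ± 2.89, higher than in E12.5 cluster cells by 3.71 and than in E10.5 cluster cells by 3.67. Its ligand gene Sema7a was found in 4 of 7 HEC and 0 of 7 EC. Plxna4 counts among the 25 although its means lay between 5.00 and 5.05 in all 5 populations, at the background line itself.

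**Figure D5:**
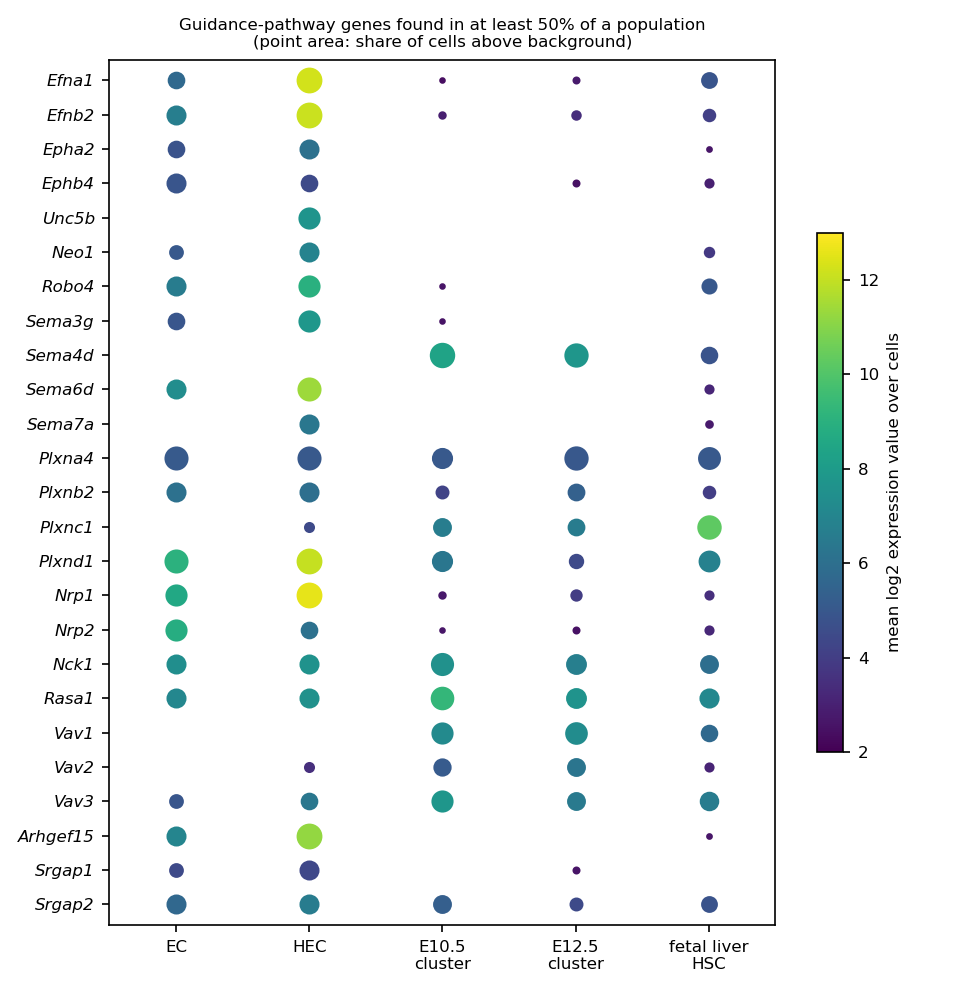
Guidance-pathway genes found in at least 50% of the cells of a population (rows) by population (columns), with point area for the share of cells above background and colour for the mean log2 expression value over cells. Efna1, Efnb2, Nrp1, Sema6d and Arhgef15 have their largest and brightest points in HEC, Sema4d and Vav1 in the clusters, and Plxnc1 in HSC.

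Over the 84 cells, the genes whose values were most like those of each member were named from the 8840 genes above background in at least 10 cells, by Pearson r and as a description, since cells of a population share its level. Efnb2 was most like Ptprm (0.72), Fermt2 (0.72) and Kdr (0.71), and Efna1 most like Prex2 (0.78), Zcchc14 (0.68) and Ehd2 (0.65). Unc5b was most like Gja4 (0.82), which encodes an arterial gap junction protein, and then Igfbp2 (0.70) and Sox7 (0.70). Ephb4 was most like Adcy4 (0.80), Mest (0.68) and Cldn5 (0.65). Plxnd1 was most like Col4a1 (0.74), Mmrn2 (0.71) and Serpinh1 (0.69), and Robo4 most like Ptprb (0.71), Prex2 (0.69) and Col4a1 (0.69). For Efnb1, found in 4 cells, no gene reached 0.50, the most alike being Gpr107 (0.48).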

How the data were processed

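The deposited values are log2 expression values, 1 array per cell, which the authors made with GCRMA and affy, as named per the submitters' processing notes. Their versions are not given in the sources used here. They ran from 2.19 to 17.86, were not equal in distribution between cells and were not normalized again for the values reported. In 62 of 85 arrays both of a pair of control probe sets held a value shared across arrays, and no source used here states that step.

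Of 45101 probe sets, 34945 had 1 gene symbol in the platform annotation, 932 several and 9211 were not listed. Of the symbols, 34741 matched RefSeq genes of GRCm38.p6 by identifier, 0 with another symbol, and the 64 control probe sets were left out. Each of 18193 genes was represented by its probe set with the highest mean over populations weighted equally, and all probe sets of the members were also read. Coordinates and promoter sequences are RefSeq's.

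A log2 value over 5 was above background, a gene was measured with 3 such cells, and 1 log2 unit made a call. The limit for near-identical arrays was r = 0.95. Named genes were the 7 members, genes of the guidance lists above background in at least 50% of a population, and for each member the 3 genes with the highest r over cells among those above background in at least 10. Marker genes of the cells that went against the sort were also named, after their values were seen. The members, lists and tests were chosen with earlier results of these data known. The number of arrays limits precision. Alternatives were scaling, the summary over cells and over probe sets, the background line, the filter, and the cells kept. The calculation was tested on simulated data. Python 3.11.15, numpy 2.4.6, pandas 2.3.3, scipy 1.17.1 and matplotlib 3.10.9 were used.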

Additional observations from a re-analysis of the deposited data

Results flagged for a closer look

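Of 12 sets of values examined for a single cell far from the others, 2 stood out, both in EC cell 3. The rule's rate of about 1 in 20 by chance assumes bell-shaped values. It does not hold for values that lie either at the floor or far above it, so no chance rate can be set beside these 2. Efnb1 was 7.41 in that cell, while the next EC was at 2.42. Plxnd1 was 2.88 there, while the nearest other EC was at 8.49. EC cell 3 is the cell with Dppa3 and Pou5f1 and with 2 of 15 pan-endothelial markers.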

How the results depend on the processing

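Of the recomputed values, 371 single values and 90 counts or means over members were labelled as kept, 23 and 7 as moved and 1 as reversed. A value labelled as kept could still change sign or lose its call. Ephb4 in HEC minus EC went from -0.44 to 0.45 in the cells with both shared control values. Efna1 in HSC minus E12.5 cluster cells fell from 2.15 to 0.20 by medians over cells. Plxnd1 in E12.5 minus E10.5 cluster cells reversed to 0.078 after quantile normalization, which left 0 members lower there, against 1, and the cause was not tested. Members lower in HEC than in EC, 0 as reported, numbered 2 with cells shifted to an equal median, 1 with quantile normalization, 1 by medians over cells, and 0 to 1 when each cell was left out in turn. Members higher in HSC numbered 1 against E12.5 cluster cells and 0 against E10.5 cluster cells by medians over cells, against 3 each as reported. Leaving out each cell in turn gave 3 to 4 and 2 to 3. Members higher in HEC than in EC numbered 4 in the cells with both shared control values, against 5. Equal-median scaling moved the median of all genes in HEC minus EC to -0.15 and quantile normalization to 0.00, against 0.82, and relative to those medians Efna1, Efnb2, Unc5b, Plxnd1 and Robo4 still differed by 1 or more. Without the filter on low values, 27.7% of genes were higher and 4.73% lower in HEC than in EC, and 25.3 and 10.1% in E10.5 cluster cells than in HEC. The other comparisons gave 3.27 and 23.5% for E12.5 against E10.5 cluster cells, 4.65 and 21.7% for HSC against E12.5 cluster cells, and 2.95 and 32.6% for HSC against E10.5 cluster cells. No paired analysis was possible because no test was made and the cells' numbers only name them. Leaving out each cluster and HSC cell in turn, and the counts of cells without the 6 that went against the sort, were added after the data were seen. The number of cells, 7 in HEC and 7 in EC, and values near background limit what can be read here.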

Other observations

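Slit2, a ligand gene of the Roundabout family that was named after its values were seen, was found in 9 of 26 HSC with a mean of 5.18 ± 3.81 and a highest value of 11.44. In E12.5 cluster cells it was found in 0 of 16 and in E10.5 cluster cells in 2 of 28, with a highest value of 10.96. Slit2 and Robo4 were both found in 5 HSC, Slit2 alone in 4, Robo4 alone in 4 and neither in 13. In HEC both were found in 1 of 7 cells, Slit2 alone in 2 and Robo4 alone in 4, and in EC both in 1 of 7, Slit2 alone in 0 and Robo4 alone in 3.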
